A study of Homo sapiens with 18 samples.

Results

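HEK293T cells given the constructs of both fusion proteins of the translocation t(4;11) were compared between day 28 and day 3 by ATAC-seq. In this assay a transposase inserts into open DNA, and its reads were counted per gene. The comparison used the 6 libraries whose labels name MLL-AF4 plus AF4-MLL, 3 per day, of 18 in the series, and it covered 17601 nuclear genes of the 17660 genes tested. The other 59 genes tested, 36 on the mitochondrial genome and 23 named copies of it in the nuclear genome, were set apart. The count table listed 54425 genes in all.

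All cells were HEK293T, an established line from human embryonic kidney, grown in DMEM with serum. In the co-expression cells MLL-AF4 was expressed constitutively from a stably transfected Sleeping Beauty vector. AF4-MLL was induced with doxycycline at 1 µg/ml for 48 h and was off afterwards, so that day 28 came 25 days after day 3. Both days therefore share the constitutive MLL-AF4 construct but differ in AF4-MLL. The earlier day fell at the end of its induction, and the later day came long after its shutdown. Strong expression of AF4-MLL on the earlier day, before the shutdown, and a decline afterwards are reported in the study. Per the study's methods, the MLL-AF4 line was selected with puromycin until nearly all cells showed the green reporter, and the transiently transfected AF4-MLL plasmid was lost from the cells once blasticidin was withdrawn. The other settings of the series, each sampled on the same 2 days in 3 libraries per day, carried inducible MLL-AF4 alone or inducible AF4-MLL alone, each induced for 48 h at the same dose. Cells without a construct are not among the samples analysed here, so a change over time in culture and a change after the end of induction cannot be told apart.

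MLL, the product of KMT2A, is a histone H3 lysine 4 methyltransferase that keeps developmental genes such as the HOX clusters active. AF4, the product of AFF1, is a scaffold of the super elongation complex, which releases paused RNA polymerase. The translocation joins the genes reciprocally, so that one fusion carries the DNA-binding front of MLL and the other its catalytic end. Open chromatin at the start of a gene accompanies its transcription but is not a measure of it.

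Nuclear genes received 552222 to 613989 counts per library on day 3 and 312606 to 890525 on day 28, where replicate 3 was the shallowest. The typical tested nuclear gene was thinly covered, at a median of 24 counts in each library. The mitochondrial genome took 32.8% to 44.1% of all counts on day 3 and 63.6% to 68.5% on day 28, and with TMM scaling the median change of nuclear genes was 0.00 on the log2 scale. As a check of the labelled cell line, 23 of 25 kidney and HEK293T regulators were tested, against 14 of 28 blood lineage markers and 12 of 21 markers of liver, muscle and fibroblasts. Summed over each list, CPM (the normalised read count of a gene relative to the TMM-scaled library size) ran from 623 to 661 on day 3 and 582 to 631 on day 28 for the kidney and HEK293T list, from 169 to 182 and 179 to 190 for the blood list, and from 131 to 163 and 134 to 170 for the third. No listed marker was at 0 in all 6 libraries, and no member of the 3 lists was called.

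The genes behind the fusions did not pass the test. KMT2A (chr11:118436492-118526832) had 47.3, 53.7 and 57.4 CPM on day 3 and 79.9, 59.8 and 62.5 CPM on day 28. All day 28 libraries lay above all day 3 libraries, with a log2 change of 0.39 ± 0.14 (SE, n = 3 per day, adjusted p = 0.23, edgeR). AFF1 (chr4:86935011-87141039) had 54.7, 47.0 and 56.7 CPM on day 3 and 55.9, 56.0 and 62.5 CPM on day 28, with days that overlapped and a log2 change of 0.11 ± 0.14 (adjusted p = 0.86, edgeR). Reads from the constructs and from the cells' own copies of these genes cannot be told apart in counts per gene.

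Over the 25 days few nuclear genes passed the test for a change. Genes of ER and stress control (HSPA5, PPP1R15A), OAZ1, TUBB4B, ACTG1, RPL10 and RPL12 fell, while SETMAR, SCML1 and SUSD2 were among those that rose. At an adjusted p under 0.05 (edgeR quasi-likelihood test, Benjamini-Hochberg over all 17660 genes) 50 of 17601 nuclear genes were called (0.284%), of which 20 were higher (0.114%) and 30 lower (0.17%) on day 28. Among the 50, 37 were protein-coding, 1 was a lncRNA, 1 a pseudogene and 11 had no match in RefSeq. At an unadjusted p under 0.05 there were 1623 nuclear genes, 774 higher (4.4%) and 849 lower (4.82%), where 880.1 were expected. In 2455 nuclear genes (13.9%) the libraries of one day did not overlap those of the other, where a share of 0.1 is expected by chance with 3 against 3 libraries. Called genes named by rank were chosen with this non-overlap as a condition, so it adds no support for them. The adjustment pooled nuclear genes with the genes set apart, of which 36 of 36 mitochondrial genes and 21 of 23 copies were called. Such calls ease the cutoff for nuclear genes. With nuclear genes only in the fit, 26 were called (8 higher and 18 lower), and HSPA1B, RPL10, RPL12, RBBP4 and TTN were among those lost. The number of calls also depended on the libraries and the method: 25 genes were called without replicate 1 of day 3, 31 without replicate 1 of day 28, 27 without replicate 2 of day 28 and 15 by DESeq2. Without TMM, on library size alone, 15515 were called (5 higher and 15510 lower), as the median change of nuclear genes then stood at -1.07. Of the 50 genes, 9 passed under every alternative that was run, namely HSPA5, DNASE1L1, OAZ1, PPP1R15A, TUBB4B and RHOB among the lower and MIR6723, AC093809.1 and AL669831.3 among the higher.

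**Figure D1:**
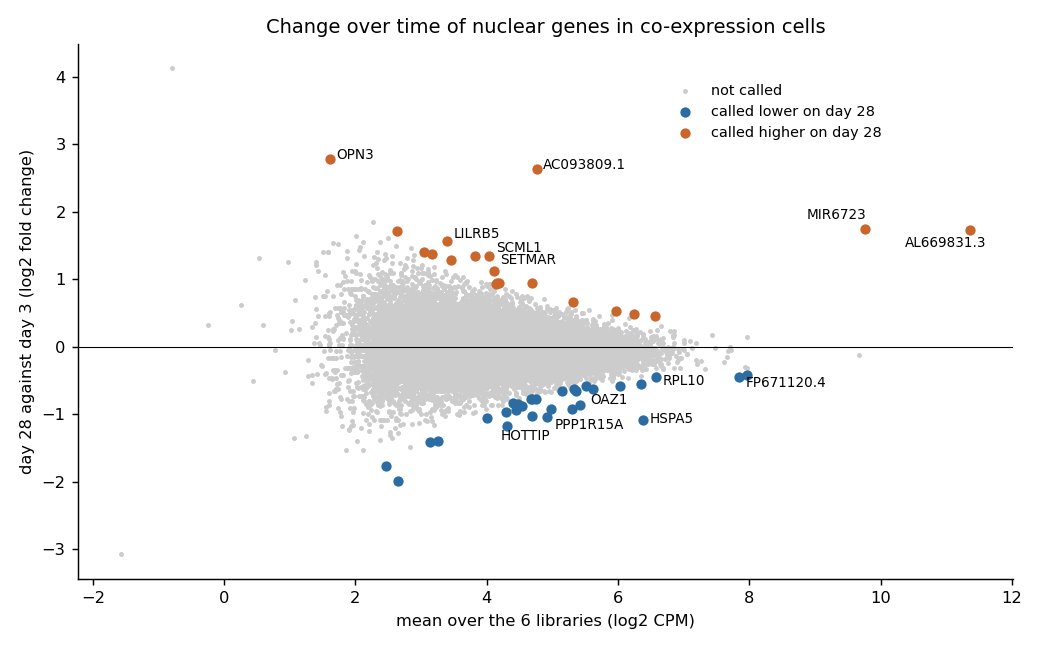
Change of each of 17601 nuclear genes between day 28 and day 3 (log2 fold change, vertical) against its mean level over the 6 co-expression libraries (log2 CPM, horizontal), with the 30 genes called lower in blue and the 20 called higher in orange. HSPA5 stands apart at -1.08 among the well covered genes, and OPN3 at the upper left rests on 1 count per library on day 3.

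The gene called lower with the smallest adjusted p was HSPA5 (ENSG00000044574, chr9:125234853-125241343), which encodes BiP, the Hsp70 chaperone of the endoplasmic reticulum (ER). It had 120, 99.2 and 113 CPM on day 3 against 46.5, 54.8 and 63.8 CPM on day 28. Every day 28 library lay well below every day 3 library, and the gene fell by 1.08 ± 0.13 on the log2 scale (SE, n = 3 per day, adjusted p = 7.4e-13, edgeR). A second stress gene was PPP1R15A (chr19:48872421-48876058), whose product GADD34 brings protein phosphatase 1 to the translation factor eIF2α and so ends the integrated stress response. Its values were 46.7, 37.3 and 38.3 CPM on day 3 and 19.3, 20.5 and 19.9 CPM on day 28, close together on day 28 and without overlap between the days. It fell by 1.04 ± 0.20 (adjusted p = 8.4e-05). The third was HSPA1B (chr6:31827738-31830254), a heat-inducible cytosolic Hsp70, with 50.7, 50.7 and 44.4 CPM on day 3 and 30.1, 33.0 and 31.9 CPM on day 28. Its decrease by 0.62 ± 0.16 (adjusted p = 0.035) did not hold as widely, since it passed under 6 of 17 alternatives. HSPA1B has a near-identical neighbour, HSPA1A, with which it can share reads.

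The promoter windows of these 3 genes are shown because each class of stress gene is known for its own promoter elements. They are RefSeq sequences of GRCh38.p14, 5′ to 3′ on the strand of the gene, from 250 bases before to 50 bases after the start. Capitals mark matches on either strand to the ER stress element (CCAAT followed after 9 bases by CCACG), to the CCAAT box itself, to the cyclic AMP response element TGACGTCA and to the TATA box TATAAA. The ER stress element contains a CCAAT box, so these matches overlap. The heat shock element (GAA, then TTC, then GAA, with 2 bases between each) was searched too.
HSPA5, chr9:125241294-125241593, minus strand: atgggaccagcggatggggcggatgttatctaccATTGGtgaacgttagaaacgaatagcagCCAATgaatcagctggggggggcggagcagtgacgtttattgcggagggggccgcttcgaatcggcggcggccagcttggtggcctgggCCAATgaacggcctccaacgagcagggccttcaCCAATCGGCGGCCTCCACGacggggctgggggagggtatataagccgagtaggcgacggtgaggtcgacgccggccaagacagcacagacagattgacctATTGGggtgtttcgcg
PPP1R15A, chr19:48872171-48872470, plus strand: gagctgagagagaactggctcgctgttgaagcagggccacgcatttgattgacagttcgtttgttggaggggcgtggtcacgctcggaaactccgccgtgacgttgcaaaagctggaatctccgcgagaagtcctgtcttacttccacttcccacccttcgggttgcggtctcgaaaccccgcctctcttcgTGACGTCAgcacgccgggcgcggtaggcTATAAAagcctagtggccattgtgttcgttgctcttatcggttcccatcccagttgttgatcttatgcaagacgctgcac
HSPA1B, chr6:31827488-31827787, plus strand: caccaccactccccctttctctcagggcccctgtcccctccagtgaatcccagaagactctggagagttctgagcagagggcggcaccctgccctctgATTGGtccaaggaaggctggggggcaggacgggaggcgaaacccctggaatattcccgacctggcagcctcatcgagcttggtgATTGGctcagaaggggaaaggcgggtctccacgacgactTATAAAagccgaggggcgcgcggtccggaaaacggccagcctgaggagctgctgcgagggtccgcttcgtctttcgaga
The HSPA5 window held 1 exact match to the ER stress element and 5 CCAAT boxes, 1 of them inside that element. Near matches to the element were not searched. Of all 27305 windows in the table, 22 (0.0806%) held this ER stress element, as did 0.119% of the windows of tested nuclear genes. PPP1R15A held 1 cyclic AMP response element, found in 1.98% of all windows and 3.01% of those of tested genes, and 1 TATA box, found in 12% and 5.88%. HSPA1B held 2 CCAAT boxes and 1 TATA box. The heat shock element in this strict form, present in 0.487% of all windows and 0.324% of those of tested genes, was in none of the windows matched by symbol to called genes. A match describes the letters of the window only.

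No other member of the stress lists passed the test. Among 27 tested ER chaperones and unfolded protein response genes, HSPA5 alone was called, 13 had a negative log2 change and the median was 0.01, beside 50.4% negative and a median of 0.00 over all nuclear genes. Among 24 tested ATF4 targets of the integrated stress response, PPP1R15A alone was called, 12 were negative and the median was -0.04. The HSF1 heat shock genes leaned further, with 18 of 21 negative and a median of -0.14, but HSPA1B alone was called and 4 members were lower at an unadjusted p under 0.05. Among 32 AP-1 and immediate early genes 21 were negative (median -0.11) and 0 passed the adjusted test. At an unadjusted p under 0.05, 7 were lower and 0 higher, where the background was 4.82% lower. These are short genes, with a median span of 4710 bases. Protein-coding genes of the shortest spans, from 387 to 5661 bases, had 69% negative and a median of -0.13. With a correction for gene span the median of the list was -0.08. IER5 had 43.3, 33.6 and 37.6 CPM on day 3 against 25.9, 23.0 and 22.6 CPM on day 28 (log2 change -0.66 ± 0.19, adjusted p = 0.066). JUN, with 158, 211 and 165 CPM against 145, 131 and 149 CPM, had a log2 change of -0.33 ± 0.11 (adjusted p = 0.16), and FOS had -0.59 ± 0.22 (adjusted p = 0.29). In all 3 the libraries of the days did not overlap. Of 20 tested genes of the metal and oxidative stress response 15 were negative (median -0.17) and none was called, with MT2A, a metallothionein, at -0.59 ± 0.20 (adjusted p = 0.21) and HMOX1, haem oxygenase, at -0.58 ± 0.21 (adjusted p = 0.25). Among 29 p53 targets and apoptosis genes 24 were negative with a median of only -0.08 and 0 were called. MDM2, the ubiquitin ligase of p53, was at 0.45 ± 0.20 (adjusted p = 0.41), CASP9 at 0.38 ± 0.16 (adjusted p = 0.36) and GADD45B at -0.56 ± 0.25 (adjusted p = 0.43).

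**Figure D2:**
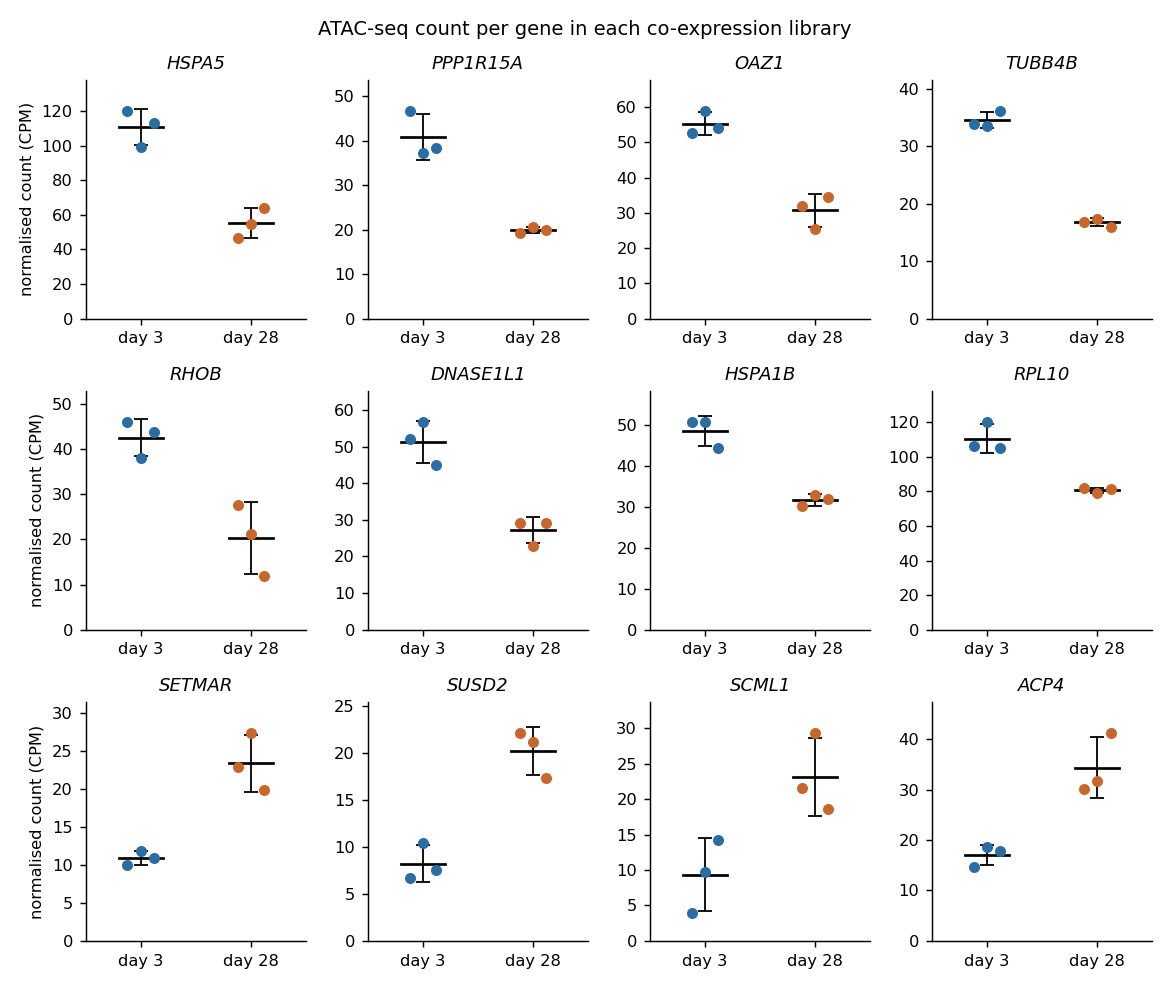
Normalised count (CPM, vertical axes from 0) of 12 called genes in each of the 3 day 3 (blue) and 3 day 28 (orange) co-expression libraries, with mean and SD in black. The first 8 genes were lower in every day 28 library than in every day 3 library, as HSPA5 with 46.5 to 63.8 against 99.2 to 120, and the last 4 were higher in every day 28 library.

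OAZ1, the tubulin gene TUBB4B, the actin gene ACTG1 and RHOB were also among the genes that fell. OAZ1 (chr19:2269486-2273488), the antizyme that inhibits ornithine decarboxylase, had 52.7, 58.9 and 54.0 CPM on day 3 and 32.0, 25.5 and 34.6 CPM on day 28. The days were far apart and the gene fell by 0.87 ± 0.16 (adjusted p = 8e-05, edgeR). TUBB4B (chr9:137241287-137243707), a β-tubulin, had 34, 33.6 and 36.2 CPM against 16.9, 17.4 and 16 CPM, with little spread on either day, and fell by 1.03 ± 0.21 (adjusted p = 0.00037). ACTG1 (chr17:81509971-81512799), cytoplasmic γ-actin, had 64.7, 61.2 and 54.0 CPM against 40.9, 36.1 and 38.5 CPM and fell by 0.63 ± 0.15 (adjusted p = 0.013). TUBA1B (chr12:49127782-49131395), an α-tubulin picked out after its values were seen, fell by 0.58 ± 0.16 (adjusted p = 0.047). ACTG1 passed under 12 of 17 alternatives and TUBA1B under 5. RHOB (chr2:20447074-20449440), a small GTPase that regulates actin, had 46.0, 38.0 and 43.7 CPM against 27.7, 21.2 and 12 CPM, where replicate 3 of day 28 was lowest, and fell by 0.92 ± 0.19 (adjusted p = 0.00037). Tubulin, actin and ribosomal protein genes have processed copies elsewhere in the genome, and how multiply mapped reads were counted is not given in the sources used here.

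The windows of OAZ1 and TUBB4B are shown with the same marks, since both genes passed under every alternative and, like HSPA5, held several CCAAT boxes.
OAZ1, chr19:2269236-2269535, plus strand: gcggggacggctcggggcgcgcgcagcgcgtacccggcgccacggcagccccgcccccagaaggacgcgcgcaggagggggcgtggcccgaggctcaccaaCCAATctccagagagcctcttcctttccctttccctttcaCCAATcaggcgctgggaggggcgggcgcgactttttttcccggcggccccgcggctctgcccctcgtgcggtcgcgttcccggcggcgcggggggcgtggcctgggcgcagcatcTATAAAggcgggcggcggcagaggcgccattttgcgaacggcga
TUBB4B, chr9:137241037-137241336, plus strand: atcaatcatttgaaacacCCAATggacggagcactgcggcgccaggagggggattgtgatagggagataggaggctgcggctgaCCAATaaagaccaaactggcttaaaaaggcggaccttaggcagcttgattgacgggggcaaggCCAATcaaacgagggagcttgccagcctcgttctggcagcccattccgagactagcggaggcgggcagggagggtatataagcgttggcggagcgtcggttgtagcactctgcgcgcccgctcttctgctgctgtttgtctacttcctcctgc
OAZ1 held 2 CCAAT boxes and 1 TATA box, and TUBB4B held 3 CCAAT boxes. For the motif counts, windows were matched to genes by symbol only, not by synonym. A CCAAT box lay in the windows of 12 of the 19 genes called lower with such a window and in 5 of the 14 called higher. The share was 35.7% of all windows and 35.9% of the 11743 windows of tested nuclear genes matched by symbol. The genes with windows were chosen by their change, and the difference in shares was not tested.

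Other genes that fell served varied functions. DNASE1L1 (chrX:154401236-154412101), a DNase I-like nuclease, had 52.0, 56.7 and 45.1 CPM on day 3 and 29.1, 23.0 and 29.2 CPM on day 28 and fell by 0.92 ± 0.17 (adjusted p = 4e-05, edgeR). HOTTIP (chr7:27200421-27207259), a lncRNA at the far end of the HOXA cluster that binds the MLL partner WDR5, had 24.7, 34.3 and 22.5 CPM against 8.93, 14.9 and 13.3 CPM and fell by 1.18 ± 0.25 (adjusted p = 0.00081). It lost its call without replicate 1 of day 28 or replicate 2 of day 3. GSTO2 (chr10:104269184-104304950), an omega class glutathione transferase, fell by 0.55 ± 0.12 (adjusted p = 0.0035), and CRELD1 (chr3:9933834-9945406), a membrane protein with EGF-like domains, by 0.93 ± 0.22 (adjusted p = 0.0091). FASTK (chr7:151076624-151080809), founder of a family of mitochondrial RNA-binding proteins, fell by 0.58 ± 0.14 (adjusted p = 0.0082), and NAA10 (chrX:153929225-153935037), the catalytic subunit of the N-terminal acetyltransferase NatA, by 1.06 ± 0.27 (adjusted p = 0.018). The olfactory receptor pseudogene OR1X1P fell by 1.40 ± 0.35 (adjusted p = 0.018) and AC092053.3, without a RefSeq match, by 0.97 ± 0.24 (adjusted p = 0.013). FAM166A (chr9:137243599-137255122) fell by 0.88 ± 0.22 (adjusted p = 0.019), and its span overlaps that of TUBB4B, as that of DNASE1L1 overlaps RPL10, so the members of each pair can share reads. Further genes called lower, picked out after their values were seen, included MAT2A, which makes S-adenosylmethionine (fell by 0.77 ± 0.21, adjusted p = 0.042), and RIOK1, a kinase of ribosome maturation (fell by 0.66 ± 0.17, adjusted p = 0.035). MAT2A and RIOK1 each passed under 6 of 17 alternatives, and NAA10 under 9 of 16.

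Of the 34 gene lists, the cytosolic ribosomal proteins had the lowest median. RPL10 (chrX:154398065-154402339) had 106, 120 and 105 CPM on day 3 and 81.8, 79.1 and 81.1 CPM on day 28 and fell by 0.45 ± 0.12 (adjusted p = 0.034, edgeR), and RPL12 (chr9:127447674-127451406) had 33.3, 36.5 and 29.4 CPM against 23.0, 15.6 and 17.3 CPM and fell by 0.77 ± 0.21 (adjusted p = 0.042). These 2 of 78 were the called members. Of the 78 genes, 67 had a negative log2 change, with a median of -0.27 and a range from -1.16 to 0.32, beside a median of 0.00 over all nuclear genes. At an unadjusted p under 0.05, 23 of the 78 were lower and 0 higher, where the background was 4.82% lower. In 25 members every day 28 library lay below every day 3 library, and in 1 above, together 33.3% of the members where the background was 13.9%. The 45 genes of the large subunit (median -0.29, 42 negative) and the other 33, mostly of the small subunit (median -0.20, 25 negative), both leaned lower. As a share of nuclear counts, the ribosomal protein genes held 0.694%, 0.720% and 0.671% on day 3 and 0.580%, 0.559% and 0.592% on day 28, so that the days did not overlap. The median difference of the list from all nuclear genes was -0.19 with a correction for gene span and ran from -0.34 to -0.23 under the other alternatives. Both RPL10 and RPL12 lost their call with the co-expression libraries fitted alone, with DESeq2, with the gene span, promoter GC and loess offsets, with nuclear genes only, and without replicate 1 or replicate 2 of day 3 or replicate 2 or replicate 3 of day 28.

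In the other lists of protein synthesis and metabolism 0 members were called. Of 29 tested translation factors 13 were negative (median 0.04) and 0 were called, although EEF2, the elongation factor that moves the ribosome along, was at -0.54 ± 0.16 (adjusted p = 0.089), EIF4A1 at -0.77 ± 0.26 (adjusted p = 0.19) and EIF4G2 at -0.46 ± 0.15 (adjusted p = 0.16). Nuclear subunits of oxidative phosphorylation had 34 of 59 negative (median -0.04) and 0 called, with NDUFA10, a complex I subunit, at 0.98 ± 0.30 (adjusted p = 0.11) and CYCS, cytochrome c, at -0.51 ± 0.19 (adjusted p = 0.30). Genes of mitochondrial DNA maintenance and expression had 15 of 21 negative (median -0.12) and 0 called, beside the rise of mitochondrial counts given above. Glycolysis and hypoxia genes (16 of 31 negative, median -0.03), cholesterol and fatty acid synthesis (11 of 24, median 0.00), proteasome subunits (19 of 31, median -0.06) and autophagy and lysosome genes (14 of 28, median -0.04) held 0 called members each. TPI1, triose phosphate isomerase, was at -0.49 ± 0.16 (adjusted p = 0.18) and GAPDH at -0.25 ± 0.13 (adjusted p = 0.55).

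No gene of the lists closest to the fusion proteins passed the test. Among 20 tested targets of MLL fusions 14 were negative, the log2 changes ran from -0.34 to 0.31 with a median of -0.07, and 0 were called. The smallest p-values were those of MYC, a growth-promoting transcription factor, at -0.34 ± 0.14 (adjusted p = 0.40), of MEF2C at 0.31 ± 0.18 (adjusted p = 0.58) and of HOXA9 at 0.28 ± 0.16 (adjusted p = 0.59). HOXA9 had 37.3, 41.0 and 35.5 CPM on day 3 and 49.4, 47.3 and 35.9 CPM on day 28, so that the days overlapped. Of 35 tested HOX genes 25 were negative (median -0.10) and 0 were called, with HOXD9 at 0.99 ± 0.29 (adjusted p = 0.09) and 12.7, 6.71 and 6.83 CPM against 21.2, 18.7 and 6.65 CPM. The median span of the HOX genes was 3988 bases, and the shortest of 10 span bins of protein-coding genes had 69% negative and a median of -0.13. Among 22 genes of the super elongation complex, P-TEFb and the DOT1L complex 9 were negative (median 0.03) and 0 were called. CCNT1, the cyclin of P-TEFb, was at 0.27 ± 0.15 (adjusted p = 0.57) and CDK9, its kinase, at 0.52 ± 0.31 (adjusted p = 0.60). For KMT2 methyltransferases, menin and COMPASS core subunits 7 of 19 were negative (median 0.11) and 0 called, with HCFC1 at -0.33 ± 0.12 (adjusted p = 0.28) and KMT2C at 0.31 ± 0.17 (adjusted p = 0.56).

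The lists of other chromatin regulators held 1 called gene. SETMAR and SCML1, described below, were called too but are not in these lists. RBBP4 (chr1:32651208-32686211), a histone-binding subunit of PRC2, NuRD and CAF-1, had 44.7, 51.5 and 52.6 CPM on day 3 and 69.6, 62.9 and 93.0 CPM on day 28 and rose by 0.53 ± 0.14 (adjusted p = 0.034, edgeR). It passed under 7 of 17 alternatives, and its log2 change was -0.51 on library size alone. It was the only called member of 30 Polycomb genes, of which 13 were negative with a median of 0.03. Of 32 SWI/SNF, ISWI and CHD remodellers 16 were negative (median 0.02) and 0 were called, with DPF2, a BAF subunit, at 0.72 ± 0.22 (adjusted p = 0.13), CHD4, the NuRD ATPase, at -0.38 ± 0.15 (adjusted p = 0.32) and CHD3 at 0.81 ± 0.34 (adjusted p = 0.38).

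**Figure D3:**
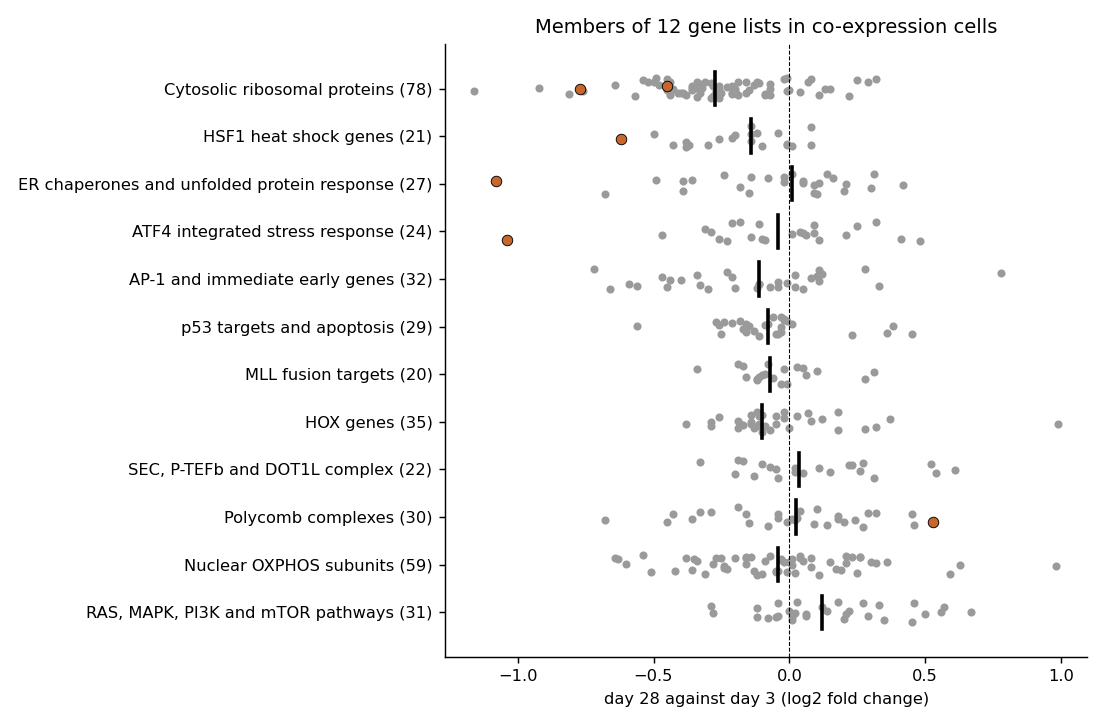
Log2 fold change of every tested member (points) of 12 gene lists between day 28 and day 3, with the number tested in brackets, called members in orange and the median of each list as a black bar. The ribosomal protein genes sit left of 0 with a median of -0.27, while HSPA5 and PPP1R15A lie far from lists with medians of 0.01 and -0.04.

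In the lists of growth and signalling 0 members were called. Genes of G1 and S phase had 20 of 33 negative (median -0.03), with MCM7, a subunit of the replicative helicase, at -0.33 ± 0.13 (adjusted p = 0.31), TYMS, thymidylate synthase, at -0.67 ± 0.27 (adjusted p = 0.35) and CCNE1, cyclin E1, at 0.77 ± 0.34 (adjusted p = 0.42). Genes of G2 and mitosis had 12 of 30 negative (median 0.08) and those of DNA repair 14 of 28 (median 0.02). The RAS, MAPK, PI3K and mTOR pathways had 8 of 31 negative with a median of 0.12, and 3 members were higher at an unadjusted p under 0.05. Their median span was 86066 bases, and the span bin of protein-coding genes around that length had 42.2% negative and a median of 0.05. With a correction for gene span the median of the list was 0.08. Interferon and innate immune genes had 8 of 23 negative (median 0.18), with MAVS, the adaptor of RNA sensing at mitochondria, at 0.52 ± 0.18 (adjusted p = 0.22), TMEM173, the DNA sensing adaptor STING, at 1.12 ± 0.50 (adjusted p = 0.43) and IFI27 at -1.22 ± 0.55 (adjusted p = 0.44). At an unadjusted p under 0.05, 4 members of that list were higher and 2 lower. NF-kB and cytokine genes had 10 of 20 negative (median -0.01), with 5 lower and 0 higher at an unadjusted p under 0.05. Adhesion and migration (15 of 32, median 0.02), G-protein and calcium signalling (13 of 32, median 0.11), Wnt, Notch and Hedgehog (19 of 36, median -0.03) and the circadian clock (6 of 15, median 0.10) had medians within 0.11 of that of all nuclear genes. Over the 34 lists, 29 held no called member. Of the marker lists, kidney and HEK293T regulators had 13 of 23 negative (median -0.06), blood lineage markers 5 of 14 (median 0.24), with 2 members higher and 3 lower at an unadjusted p under 0.05, and markers of liver, muscle and fibroblasts 6 of 12 (median 0.10). In the blood list LYL1 was at 1.62 ± 0.48 (adjusted p = 0.098), CSF1R at 1.06 ± 0.37 (adjusted p = 0.21) and EBF1 at -0.77 ± 0.32 (adjusted p = 0.36).

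The genes that rose came from varied families. SETMAR (chr3:4303369-4317265), a fusion of a SET histone methyltransferase with a mariner transposase, had 10, 11.9 and 10.9 CPM on day 3 and 23.0, 27.4 and 19.9 CPM on day 28 and rose by 1.13 ± 0.25 (adjusted p = 0.0027, edgeR). SCML1 (chrX:17737128-17754985), of the Polycomb-related SCM family, had 4.00, 9.69 and 14.3 CPM against 21.6, 29.3 and 18.6 CPM and rose by 1.35 ± 0.27 (adjusted p = 0.00032), with a wide spread on day 3. SUSD2 (chr22:24181487-24189106), a sushi domain membrane protein, had 6.67, 10.4 and 7.51 CPM against 22.1, 21.2 and 17.3 CPM and rose by 1.35 ± 0.29 (adjusted p = 0.001). Days without overlap were a condition for naming these genes. The calls of SETMAR, SCML1 and SUSD2 held under 15 of 17, 13 of 16 and 14 of 15 alternatives. ACP4 (chr19:50790415-50795219), an acid phosphatase, rose by 0.94 ± 0.21 (adjusted p = 0.0034), although on library size alone its log2 change was -0.10, and LILRB5 (chr19:54249421-54257273), a leukocyte receptor, rose by 1.57 ± 0.36 (adjusted p = 0.0049) from 4 to 9 counts per library on day 3 to 17 to 27 on day 28. SARS2, the mitochondrial seryl-tRNA synthetase, rose by 0.66 ± 0.17 (adjusted p = 0.02), PLXNA1, a semaphorin receptor, by 0.94 ± 0.24 (adjusted p = 0.026), and KIDINS220, a scaffold of neurotrophin receptors, by 0.95 ± 0.25 (adjusted p = 0.035). ABI3BP, an extracellular matrix protein, rose by 1.28 ± 0.34 (adjusted p = 0.032). The long genes TTN (titin) and HELLPAR (a long noncoding RNA) rose by 0.49 ± 0.13 (adjusted p = 0.034) and 0.46 ± 0.12 (adjusted p = 0.036). These 6 genes passed under 5 to 9 of 15 to 17 alternatives, and on library size alone the log2 change of each but ABI3BP was negative.

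OPN3, a non-visual opsin named here because its call rests on few counts, had 1 count in each day 3 library and 10, 10 and 4 counts on day 28. The ratio of its summed CPM was 7.68, with an exact 95% interval from 2.33 to 39.8 that covers counting error only.

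The 3 increases with the smallest adjusted p were in entries without a RefSeq match. MIR6723 had 483, 437 and 287 CPM on day 3 and 1552, 1223 and 1248 CPM on day 28, AL669831.3 had 1426, 1329 and 898 CPM against 4895, 3591 and 3647 CPM, and AC093809.1, with only 10 to 12 counts per library on day 3, had 7.33, 7.46 and 8.20 CPM against 61.6, 34.2 and 43.9 CPM. Their log2 changes were 1.74, 1.73 and 2.64, where the tested mitochondrial genes had a median of 1.77 and a range from 0.56 to 2.11, so that MIR6723 and AL669831.3 lay near that median and AC093809.1 above the range. The sizes depended on the processing. Over the alternatives other than library size alone they ran from 0.79 to 1.89 for MIR6723, from 0.44 to 1.86 for AL669831.3 and from 2.28 to 2.86 for AC093809.1. All 3 were called higher in MLL-AF4 cells and in AF4-MLL cells too. Whether they share reads with mitochondrial DNA was not tested. Without them 47 nuclear genes were called, 17 higher and 30 lower.

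Gene classes shifted by less than 1 percentage point, and those of protein-coding genes and of entries without a RefSeq match were smaller without 3 entries. Protein-coding genes held 79.62%, 78.9% and 79.54% of nuclear counts on day 3 and 78.09%, 78.58% and 78.49% on day 28, a difference of -0.967 percentage points (exact two-sided permutation p = 0.1, the smallest that 3 against 3 libraries allow, adjusted 0.233 over 7 classes). Pseudogenes held 2.468% to 2.581% on day 3 and 2.734% to 2.84% on day 28, and entries without a RefSeq match 12.03% to 12.53% and 12.87% to 13.28%, each with an exact permutation p of 0.1 and without overlap between the days. Without MIR6723, AL669831.3 and AC093809.1 the difference was -0.247 points for protein-coding genes (exact permutation p = 0.4) and 0.0304 for entries without a match (exact permutation p = 0.9), against 0.83 with them, while that of pseudogenes was 0.276. With the named copies of mitochondrial DNA kept in the total, the differences were -10 for protein-coding genes, 11.6 for pseudogenes and -0.743 for entries without a match. Without the top 1% of genes by count, they were -0.285 for protein-coding genes and 0.0672 for entries without a match. For lncRNA genes the shares of 5.236% to 5.373% and 5.186% to 5.274% overlapped (exact permutation p = 0.3). Of the tested genes, 15 of 13976 protein-coding genes were called higher and 22 lower, and 0 of 366 pseudogenes higher and 1 lower. The study gives a selection for its first ATAC-seq experiment, which was applied here to the libraries of its second, with p from edgeR. Under it (unadjusted p under 0.05, absolute log2 change over 1 and a mean over 2 counts) 153 nuclear genes (0.869%) passed, 100 higher and 53 lower. By class these were 91 protein-coding genes (0.651% of those tested), 17 lncRNA genes (1.64%), 6 pseudogenes (1.64%) and 39 entries without a RefSeq match (1.82%). The number that passed was 153 with all libraries by edgeR and 134 by DESeq2. It ran from 263 to 351 with any 1 of the 6 left out, and the cause was not tested.

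The change over time varied with the span of the gene and with its count density. Protein-coding genes were split into 10 equal bins by the length of their RefSeq span. The shortest, from 387 to 5661 bases, had a median log2 change of -0.13 with 69.0% of genes negative, and the bin held 12 of the genes called lower and 2 called higher. The longest, from 183114 to 2473620 bases, had a median of 0.09 with 35.8% negative and held 0 called lower and 3 higher. In between, the medians climbed without a step back, from -0.06 to 0.09. The shortest bin took 10.8%, 10.7% and 10.7% of protein-coding counts on day 3 and 9.66%, 9.84% and 9.86% on day 28, while the longest took 9.32%, 9.21% and 9.44% and then 9.88%, 9.90% and 9.94%, without overlap between the days in either. The median span of the genes called lower was 4871 bases, of those called higher 35004 and of all tested nuclear genes 30462. The 39 called genes with a RefSeq span could be examined further. With only genes that have a span in the fit, 26 nuclear genes were called without a correction and 18 with a correction for span in each library, and HSPA5, DNASE1L1, OAZ1, PPP1R15A, TUBB4B and RHOB were among them. Over the 378 olfactory receptor genes of the table, which lie in closed chromatin in most tissues, the summed share of nuclear counts was 0.0893%, 0.0953% and 0.0863% on day 3 and 0.124%, 0.118% and 0.122% on day 28. Bins by count density (mean CPM per kilobase of span) gave a gradient too. The sparsest bin had a median of 0.14 with 33.8% negative, 0 called lower and 3 higher. The densest had -0.12 with 71.9% negative, 14 called lower and 2 higher. By mean CPM the medians went from 0.10 in the lowest bin (41.6% negative) to -0.05 in the highest (62% negative). Density contains span by definition, and which property of short or densely covered genes moves with time was not tested.

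**Figure D4:**
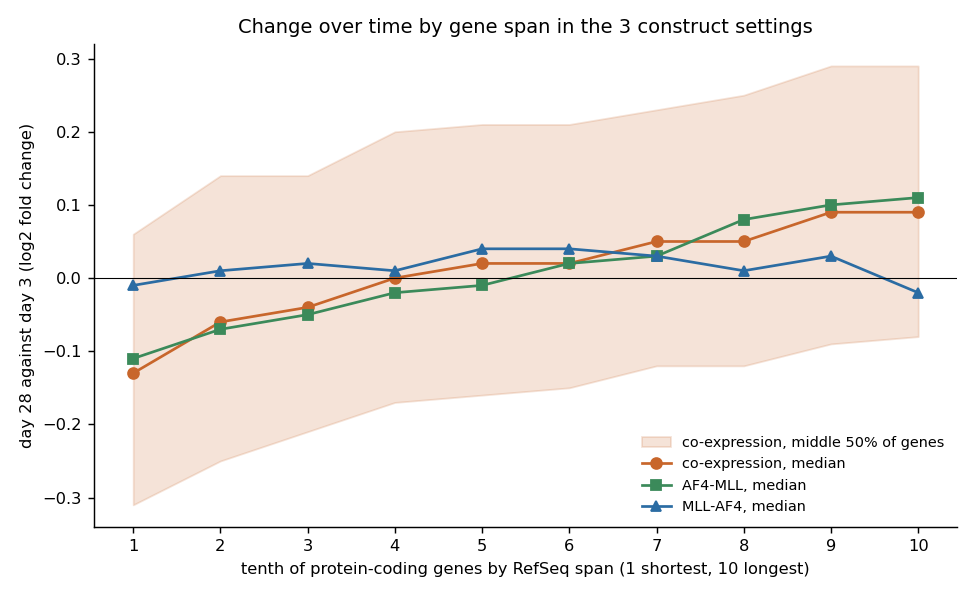
Median log2 fold change between day 28 and day 3 (vertical) of protein-coding genes in 10 bins of RefSeq gene span from shortest to longest (horizontal), for the 3 construct settings, with the middle 50% of genes in co-expression cells shaded. The medians of co-expression cells ran from -0.13 to 0.09 and those of AF4-MLL cells from -0.11 to 0.11, while those of MLL-AF4 cells stayed between -0.02 and 0.04.

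By chromosome, 1 of 23 shares of nuclear counts was called (4.35%). Chromosome 18 rose from 1.26% ± 0.021 to 1.31% ± 0.025 (SD, n = 3 per day, log2 change 0.06, adjusted p = 0.016, limma). This call was lost without replicate 2 of day 3, and likewise without replicate 2 or replicate 3 of day 28, where 0 chromosomes were called each time, and 2 were called without replicate 1 or replicate 3 of day 3 or replicate 1 of day 28. All other chromosomes lay between -0.04 and 0.03 on the log2 scale.

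The same contrast in the other settings shares no library with this one. In MLL-AF4 cells 173 nuclear genes were called higher (0.983%) and 278 lower (1.58%), and in AF4-MLL cells 22 were higher (0.125%) and 27 lower (0.153%). Of the 30 genes lower in co-expression cells, 4 were also called lower in MLL-AF4 cells (13.3% of the 30 and 1.44% of the 278), namely HSPA5, RHOB, GSTO2 and GDF9, an oocyte growth factor, and 2 were called higher there, FP671120.4 and FP236383.3. In AF4-MLL cells 3 were, HSPA5, RHOB and FP671120.4 (10% of the 30 and 11.1% of the 27). HSPA5 fell by 0.49 in MLL-AF4 cells (adjusted p = 0.0456, edgeR) and by 1.03 in AF4-MLL cells (adjusted p = 5.5e-12). Of the 20 higher genes, 4 were called higher in MLL-AF4 cells and 5 in AF4-MLL cells, and of these MIR6723, AC093809.1 and AL669831.3 were called in both. OPN3 was the fourth in MLL-AF4 cells, and TTN and HELLPAR were the others in AF4-MLL cells. The median log2 change of the 30 lower genes was -0.86 here, -0.24 in MLL-AF4 cells and -0.33 in AF4-MLL cells, where the first value is fixed by the choice of genes.

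The difference between settings was tested with an interaction term. Against MLL-AF4 cells, 40 of 17601 nuclear genes changed differently over time (0.227%), 17 with a larger and 23 with a smaller log2 change in co-expression cells. In 38 of the 40 the log2 changes had opposite signs, 30 of the 40 were called in MLL-AF4 cells, 8 in neither setting and 4 among the 50 called here, namely SETMAR, OAZ1, FP671120.4 and FP236383.3. The number for all genes was 41, and it was 14 without replicate 1 of day 28, 26 without replicate 2 of day 28, 25 without replicate 1 of day 3 and 17 by DESeq2. PPP1R15A (difference -1.30, adjusted p = 0.0502, edgeR) and HOTTIP (-1.50, adjusted p = 0.0501) fell just short, while HSPA5 (-0.59, adjusted p = 0.21), TUBB4B (-1.16, adjusted p = 0.082) and RHOB (0.01, adjusted p = 1) did not pass this test. These 3 members of the gene lists passed it, picked out after their values were seen. RPS19, a ribosomal protein, was at -0.39 here and 0.71 in MLL-AF4 cells (adjusted p = 0.013), EEF2 at -0.54 and 0.51 (adjusted p = 0.036), and PSMD14, a proteasome subunit, at 0.23 and -0.89 (adjusted p = 0.037). The ribosomal protein list had medians of -0.27 here, -0.01 in MLL-AF4 cells, with 39 of 78 negative, and -0.18 in AF4-MLL cells, with 64 of 78 negative. Against AF4-MLL cells 0 genes passed with edgeR, where 892 of all genes had an unadjusted p under 0.05, and 0 with DESeq2, where 309 did. Of the nuclear genes 891 had such a p with edgeR, close to the 880.1 expected by chance.

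**Figure D5:**
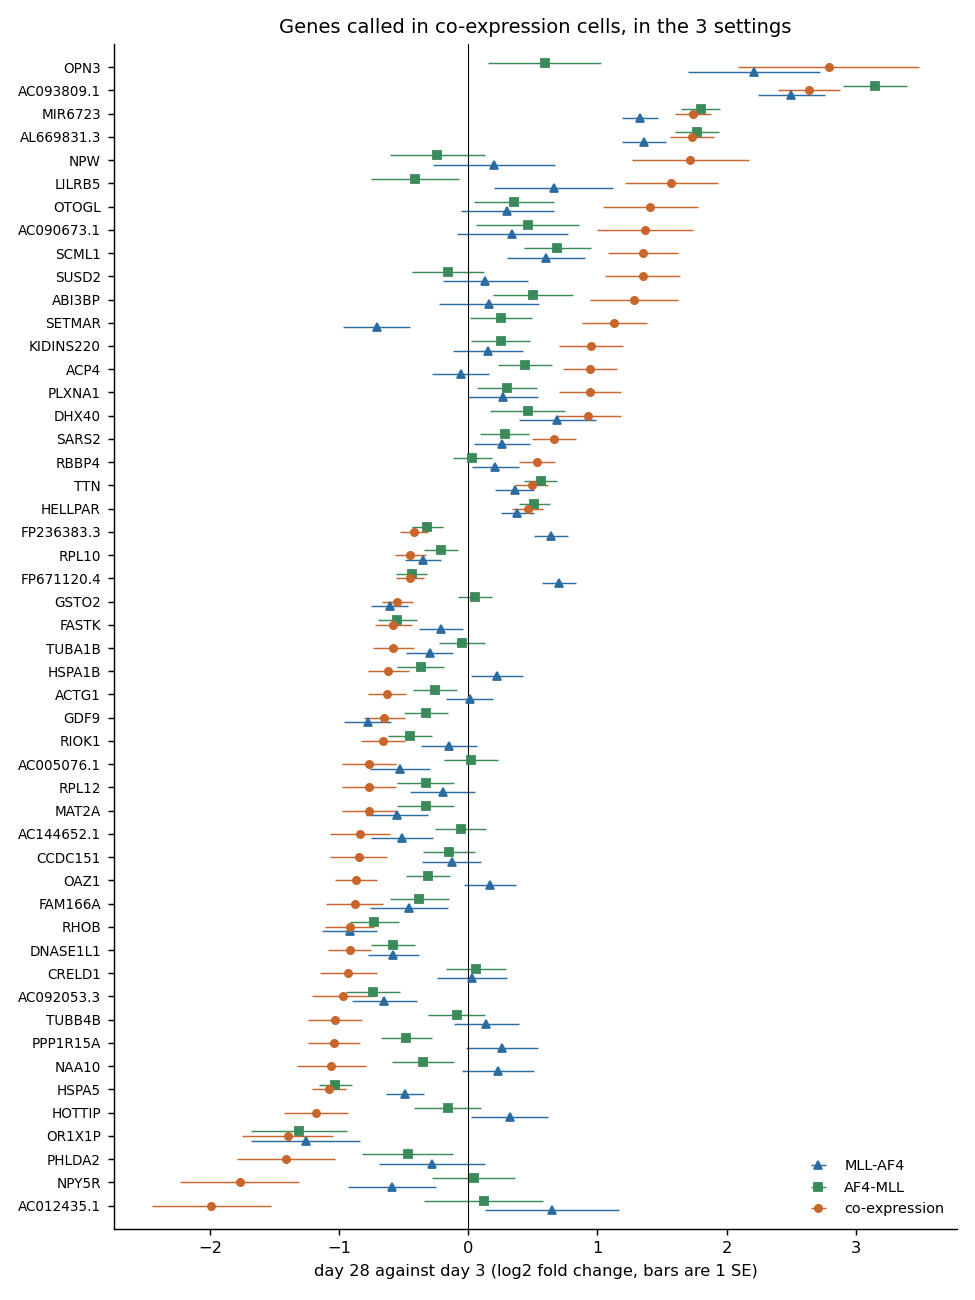
Log2 fold change between day 28 and day 3 with its standard error for each of the 50 nuclear genes called in co-expression cells (orange circles), with the same change in MLL-AF4 cells (blue triangles) and AF4-MLL cells (green squares). The orange values chose the genes, HSPA5 is negative in all 3 settings, and SETMAR is at 1.13 in co-expression cells and -0.71 in MLL-AF4 cells.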

How the data were processed

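ATAC-seq libraries were made with Nextera transposase from nuclei of 3 biological replicates per group. The values are raw counts per gene as deposited by the authors in 1 table, whose 18 columns were matched to libraries by their titles, and 0 columns were left unused. The labels' processing notes name bcl2fastq, Bowtie2, HTSeq and GRCh38. Versions, the counted feature and the treatment of duplicates, of multiply mapped reads and of the insertion offset are not given in the sources used here, so a gene count may mix promoter and gene body reads.

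Counts were fitted in R 4.3.3 with edgeR 4.0.16 (TMM scaling, filterByExpr with a minimum count of 10 and a total of 15, quasi-likelihood test) over all 18 libraries in 6 groups, so that the groups share 1 estimate of the spread. P-values were adjusted by Benjamini-Hochberg over the 17660 genes tested, and a gene was called at an adjusted p under 0.05. Interaction terms came from the same fit. Chromosome shares were fitted with limma 3.58.1, and gene class shares were compared by an exact permutation test. The scripts were tested on simulated data. Alternatives were DESeq2 1.42.0 (the tool of the study), other scalings and filters, the co-expression libraries alone, a replicate block and each co-expression library left out, and, chosen after seeing the data, offsets for gene span and promoter GC content, fitted on the 15462 and 12182 nuclear genes that have such a value, the same genes without the offset, and class shares without 3 entries.

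Positions, classes and promoters are from RefSeq GRCh38.p14, which matched 35447 of 54425 genes by symbol or synonym (87.9% of tested nuclear genes). Genes named in the text were KMT2A, AFF1, up to 15 called genes per direction by adjusted p that averaged 10 counts or more and whose days did not overlap, the called members of each of 34 gene lists or otherwise up to 3 with the smallest p, and up to 2 genes per interaction and direction. One gene that the rule names is not reported here. The comparison, the lists and the tests were chosen with earlier results of these data known. Totals of the co-expression libraries ran from 930067 to 3539937 counts, and intervals cover counting error only. Totals in the other settings ran from 442159 (AF4-MLL day 3 replicate 2) to 2943823 (AF4-MLL day 28 replicate 2). The MLL-AF4 day 3 libraries had 648466 to 715327 counts.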

Additional observations from a re-analysis of the deposited data

Results flagged for a closer look

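The change over time in co-expression cells differed from that in MLL-AF4 cells by an interaction test (edgeR, adjusted over all genes tested) for 5 genes described here. SETMAR rose by 1.13 on the log2 scale in co-expression cells and was at -0.71 in MLL-AF4 cells, a difference of 1.84 ± 0.36 (SE, adjusted p = 0.0028). OAZ1 was at -0.87 and 0.17, a difference of -1.04 (adjusted p = 0.0463) that held under 8 of 16 alternatives. FP671120.4 was at -0.45 and 0.70, a difference of -1.15 ± 0.17 (adjusted p = 1.8e-06), and FP236383.3 at -0.42 and 0.64, a difference of -1.06 ± 0.17 (adjusted p = 2e-05). Each of these differences held under 14 of 14 alternatives. In co-expression cells alone the days overlapped for both entries, and each call over time held under 9 of 15 alternatives. Both calls were lost with DESeq2 and with the co-expression libraries fitted alone. For AC106818.1 the difference of 1.03 ± 0.20 (adjusted p = 0.0034) came with values of 0.12 in co-expression cells and -0.91 in MLL-AF4 cells. FP671120.4, FP236383.3 and AC106818.1 had no RefSeq match, and the cause of the differences was not tested.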

How the results depend on the processing

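Counts of calls depended on the method. The 107 calls over all genes became 68 with DESeq2, 15566 on library size alone, 26 with mitochondrial genes and copies removed, and 82 to 102 with 1 library left out. The 50 nuclear calls became 15 with DESeq2, 26 over genes with a span and 18 there with the gene span offset, 16 over genes with a promoter window (which 35 of the 50 have) and 15 there with the promoter GC offset (4 higher, 11 lower), 26 with nuclear genes only, 15515 on library size alone and 25 to 46 with 1 library left out, and stayed between 36 and 53 under the others. All 15 DESeq2 calls were among the 50. The 41 interaction calls against MLL-AF4 cells became 17 with DESeq2, 65 at a minimum count of 30, 27 with a replicate block and 14 to 51 with 1 library left out, and the 0 against AF4-MLL cells 0 to 1. The 153 genes of the study's selection became 134 with DESeq2, 2 at a log2 change over 2 and 58 at a mean over 10 counts. They became 10466 on library size alone and 263 to 351 with 1 library left out. Chromosome calls ran from 0 to 2 with 1 library left out. The causes were not tested.

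Replicate numbers did not pair the co-expression libraries (correlations of deviations -0.062, -0.041 and 0.009 over 6051 genes). With the replicate block 97 genes were called in all, 43 of them nuclear and 41 of these among the 50.

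With copies of mitochondrial DNA kept in the total, the share differences in percentage points were -10 for protein-coding genes, -0.687 for lncRNA, 11.6 for pseudogenes, -0.0232 for microRNA, -0.0188 for snoRNA, -0.0467 for other small RNA and -0.743 (reversed) for entries without a match. Without the top 1% of genes they were -0.285 for protein-coding genes and 0.0672 for entries without a match, and without MIR6723, AL669831.3 and AC093809.1 they were -0.247 and 0.0304. The microRNA difference ran from -0.0128 to 0.000821 and the snoRNA difference from -0.0106 to 0.00145 with 1 library left out, both changing sign.

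On library size alone, log2 changes turned negative for KMT2A (-0.70), AFF1 (-0.95), MEF2C (-0.72), HOXA9 (-0.80), CCNT1 (-0.81), CDK9 (-0.52), KMT2C (-0.73), DPF2 (-0.33), CHD3 (-0.26), CASP9 (-0.70), MDM2 (-0.60), HOXD9 (-0.10), NDUFA10 (-0.07), MAVS (-0.54), ACP4 (-0.10), SARS2 (-0.43), PLXNA1 (-0.14), RBBP4 (-0.51), TTN (-0.56), KIDINS220 (-0.11), HELLPAR (-0.60), CSF1R (-0.02) and DHX40 (-0.14), where the median of nuclear genes was -1.07. At a median of 24 counts per library, small changes of single genes were not detectable.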

Other observations

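Gene classes outside the lists gave these values. Of the tested lncRNA genes, the libraries of the days did not overlap in 14.6%, 54 higher and 97 lower on day 28, and of entries without a RefSeq match in 15.1%, 102 higher and 221 lower, beside 13.9% of all nuclear genes. OR1X1P, an olfactory receptor pseudogene, had 12, 14.2 and 16.4 CPM on day 3 and 6.58, 4.36 and 3.99 CPM on day 28, while the summed share of all olfactory receptor genes was higher in every day 28 library.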
